A study of Arabidopsis with 8 samples.

Results

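Alpha expansins are small secreted proteins that loosen the plant cell wall without cutting its polymers. They act in the wall space and work best when it is acid, so that growing cells which pump protons outwards can yield to turgor, the process known as acid growth. Their genes form a large family whose members are expressed in different organs and at different stages of growth, and the family is known in leaves for its part in the expansion of blades and petioles. The 10 members described here, EXPA1, EXPA3, EXPA4, EXPA5, EXPA6, EXPA8, EXPA9, EXPA10, EXPA11 and EXPA15, were found by matching the RefSeq accession of each array probe to its AGI locus. They are 10 of the 25374 loci that a kept probe matched, and they carried 15 probes, with 1 probe for 6 genes, 2 each for EXPA3, EXPA5 and EXPA10, and 3 for EXPA8.

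Gene expression was measured in leaves of the Arabidopsis ecotypes Landsberg erecta (Ler) and Shakdara (Sha), which the study took as relatively salt susceptible and salt tolerant, respectively. Seedlings that were 10 days old from sowing went onto MS medium that held no added salt (Ler control and Sha control) or 100 mM NaCl (Ler salt and Sha salt). After 4 more days their leaves were pooled, with 30 or more seedlings to a plate. Each of the 4 groups had 2 biological replicates, each on its own 1-color Agilent array, giving 8 arrays. No transgene or further mutation was described for either ecotype, and the Col arrays of the study were not analysed here.

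Each value below is the log2 signal of a probe after subtraction of the 75th percentile of its array, so that 0 is the level of that percentile and a difference of 1 is 2-fold. Between 72.5% and 79.0% of the features other than controls were well above background on an array, and the 75th percentile of the signal was between 57.9 times the local background (Ler control replicate 1, the dimmest array) and 136.2 times. A difference was called where the limma adjusted p, over all 34659 tested probes of a comparison, was under 0.05 and the change was more than 2-fold. All 15 expansin probes passed the filter on dim probes, and the brightest probe of every member, which stands for the gene unless another is named, was well above background on all 8 arrays. The SD between the 2 arrays of a group had a median of 0.084 and a maximum of 0.28 over the members.

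The tissue was labeled leaf, and all 5 leaf mesophyll markers were well above background on all arrays. Their summed signal was 393 to 569 times the 75th percentile in Ler control and 175 to 199 in Ler salt. It was 279 to 379 in Sha control and 204 to 254 in Sha salt. With salt 3 of the 5 were called lower in Ler and 1 in Sha, beside 15.6% and 17.9% of all loci. The 5 did not move together in Sha, where the log2 changes ranged from -2.80 (CA1) to -0.04 (RBCS1A), with a median of -0.71. All 8 root and root hair markers were also well above background on all arrays. Their summed signal was 7.65 to 8.05 times that percentile in Ler control, 2.61 to 2.68 in Ler salt, 9.70 to 10.2 in Sha control and 1.87 to 1.96 in Sha salt. The root sum was thus higher in Sha than in Ler without salt, and lower in Sha with salt. Of these 8 markers, 5 were called lower with salt in Ler and 7 in Sha, beside 15.6% and 17.9% of all loci. The salt change of Sha minus that of Ler was called negative for 3 of the 8, beside 4.74% of all loci. The mesophyll and root sums were both lower with salt in both ecotypes, and the part of these markers in the results below was not tested. In these pooled samples, fewer cells of a type, root cells among them, and less RNA per cell cannot be told apart. Whether root tissue was present in the samples was not tested.

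The first question was how the alpha expansins of each ecotype responded to salt. In Ler, 1 member was called higher (EXPA10) and 2 were called lower (EXPA6 and EXPA8), where 13.1% and 15.6% of all 21518 loci were called higher and lower. In Sha, the same member was called higher, and 6 were called lower (EXPA3, EXPA4, EXPA5, EXPA6, EXPA8 and EXPA11), against 14.1% and 17.9% of all loci. EXPA6 and EXPA8 were thus called lower in both ecotypes, as were 12.5% of all loci, and EXPA10 was called higher in both, as were 10.3%. At an adjusted p under 0.05 with no limit on fold, 3 members were higher and 5 lower in Ler, against 30.0% and 36.7% of all loci. By the same limit 1 was higher and 8 were lower in Sha, against 30.7% and 39.2%. The median log2 change of the 10 members was -0.29 in Ler and -1.13 in Sha, beside -0.08 and -0.09 over all loci. Signals of the control and salt arrays did not overlap for 9 of the 10 members in each ecotype, which was also the case for 85.1% of all loci in Ler and 86.3% in Sha.

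**Figure D1:**
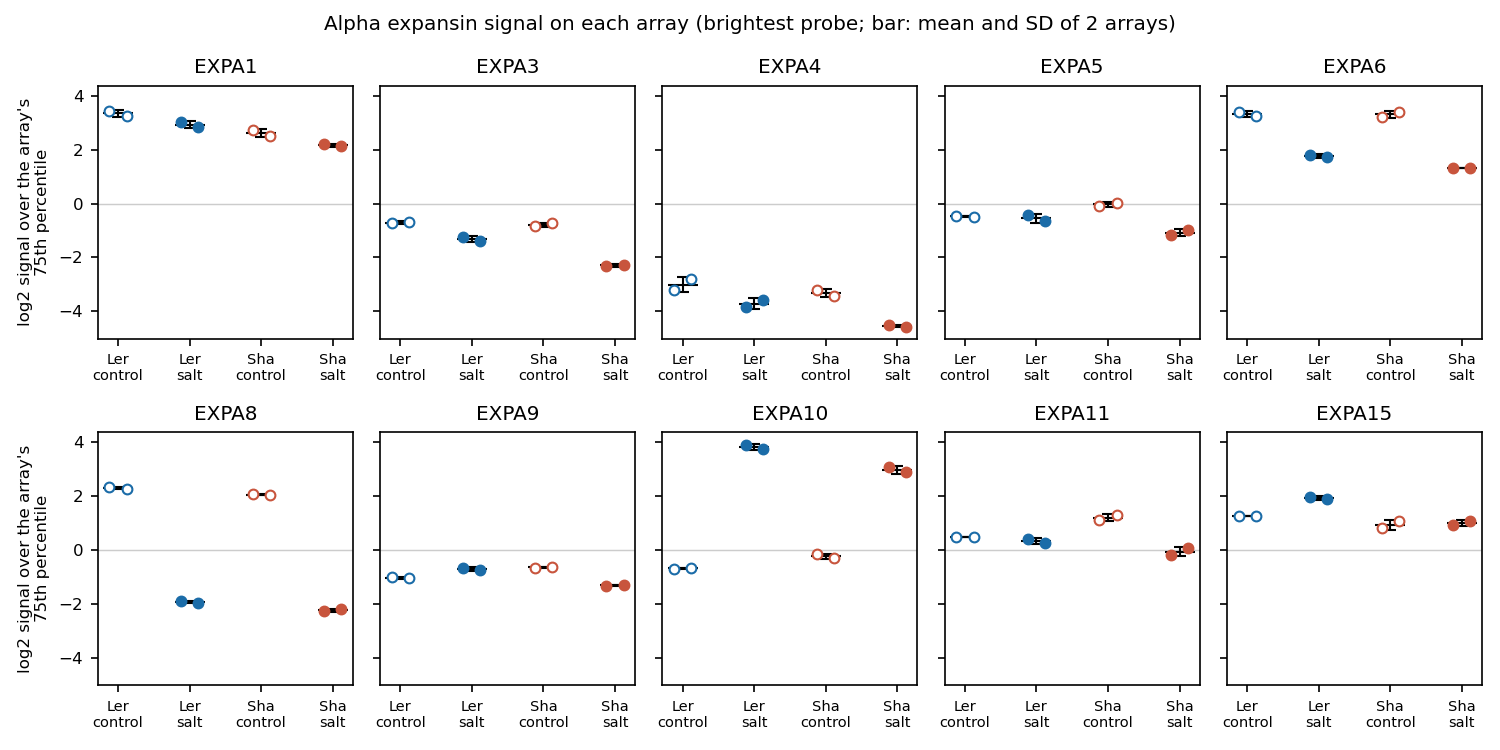
Log2 signal of the brightest probe of each alpha expansin, scaled to the 75th percentile of the array, on each of the 8 arrays. Points are arrays, and bars give the mean and SD of the 2 arrays of a group; EXPA10 stands at 2.88 or above on all 4 salt arrays and at -0.16 or below on all 4 control arrays, and EXPA8 shows the opposite arrangement.

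EXPA8 (AT2G40610), one of the expansins used as a brassinosteroid-responsive growth gene, had the largest fall of the 10 members in each ecotype. Its log2 signal was 2.33 and 2.28 on the Ler control arrays and -1.91 and -1.97 on the Ler salt arrays. In Sha it was 2.07 and 2.05 without salt and -2.27 and -2.19 with salt. The control and salt arrays lay far apart in both ecotypes, and the replicates of each group differed by less than 0.10 in log2 signal. EXPA8 fell 18.9-fold in Ler (log2 change -4.24 ± 0.07 SE, limma adjusted p = 6.69e-07) and 19.5-fold in Sha (-4.29 ± 0.07, adjusted p = 5.66e-07).

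EXPA6 (AT2G28950), a secreted wall-loosening protein like the rest of the family, was the other member called lower in both ecotypes. Its log2 signal was 3.40 and 3.24 in Ler control and 1.81 and 1.71 in Ler salt. In Sha it was 3.21 and 3.41 without salt and 1.31 on both salt arrays. The control arrays of the ecotypes overlapped, whereas both Sha salt arrays lay below both Ler salt arrays. EXPA6 fell 2.94-fold in Ler (log2 change -1.56 ± 0.10 SE, limma adjusted p = 4.09e-05) and 4.00-fold in Sha (-2.00 ± 0.10, adjusted p = 1.32e-05).

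EXPA10 (AT1G26770) was the only one of the 10 members called higher with salt, and it was so in both ecotypes. It is known for its part in the growth of leaf blades and petioles and in the breakage of pedicels. Its log2 signal was -0.69 and -0.66 in Ler control and rose to 3.90 and 3.74 in Ler salt. In Sha it was -0.16 and -0.29 without salt and 3.07 and 2.88 with salt. The 4 groups did not overlap, and their order was Ler control, Sha control, Sha salt and Ler salt. Before scaling, the processed signal was 959 and 2068 units in Ler control and 48543 and 53415 in Ler salt, and it went from 3293 and 3421 to 19566 and 27448 in Sha. EXPA10 rose 22.5-fold in Ler (log2 change 4.49 ± 0.10 SE, limma adjusted p = 1.31e-06) and 9.19-fold in Sha (3.20 ± 0.10, adjusted p = 2.76e-06).

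A further 4 members were called lower with salt in Sha and not in Ler. EXPA3 (AT2G37640) had log2 signals of -0.74 and -0.67 in Ler control, -1.25 and -1.39 in Ler salt, -0.85 and -0.73 in Sha control, and -2.33 and -2.26 in Sha salt. The 2 Sha salt arrays lay below all others, and the control arrays of the ecotypes overlapped. EXPA3 fell 2.84-fold in Sha (log2 change -1.51 ± 0.08 SE, limma adjusted p = 2.08e-05), and its change of -0.62 ± 0.08 in Ler had an adjusted p of 0.00108 but was under 2-fold.

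EXPA11 (AT1G20190) had log2 signals of 0.49 on both Ler control arrays and 0.41 and 0.26 in Ler salt. In Sha it stood at 1.11 and 1.29 without salt and at -0.18 and 0.07 with salt, so that Sha was the higher ecotype without salt and the lower one with it. EXPA11 fell 2.38-fold in Sha (log2 change -1.25 ± 0.12 SE, limma adjusted p = 0.000175), and the Ler change was -0.16 ± 0.12 (adjusted p = 0.277).

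EXPA4 (AT2G39700), which is known from pollen tubes as well as from vegetative tissue, had the lowest scaled signal of its probe in Sha salt, at -4.50 and -4.57. Its other arrays stood at -3.21 and -2.81 in Ler control, -3.86 and -3.57 in Ler salt, and -3.22 and -3.43 in Sha control. Within each ecotype the salt arrays lay below the control arrays. EXPA4 fell 2.31-fold in Sha (log2 change -1.21 ± 0.17 SE, limma adjusted p = 0.0010), while the Ler change was -0.70 ± 0.17 (adjusted p = 0.0111) and under 2-fold. The Sha call was lost with another background correction (normexp), under which the change was -0.88.

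EXPA5 (AT3G29030), a member known to act downstream of brassinosteroids, had log2 signals of -0.46 and -0.50 in Ler control and -0.43 and -0.66 in Ler salt, which overlapped. In Sha it was -0.09 and 0.03 without salt and -1.17 and -0.98 with salt, which did not. EXPA5 fell 2.06-fold in Sha (log2 change -1.04 ± 0.11 SE, limma adjusted p = 0.000327), and its Ler change was -0.07 ± 0.11 (adjusted p = 0.61). The Sha value lay near the 2-fold limit, and it was -0.98 without Sha control replicate 2, -0.95 without Sha salt replicate 1, -0.96 with median scaling or normexp, and -0.53 at the dimmer probe of the gene, in each case no longer called.

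The other 3 members were called in neither ecotype. EXPA1 (AT1G69530), which is known for its part in the opening of guard cells, had log2 signals of 3.44 and 3.26 in Ler control, 3.01 and 2.84 in Ler salt, 2.72 and 2.50 in Sha control, and 2.21 and 2.13 in Sha salt. The 4 groups stood in that order without overlap. The Ler change with salt was -0.42 ± 0.12 SE (limma adjusted p = 0.0201), and the Sha change was -0.44 ± 0.12 (adjusted p = 0.0166). The summed signal of 4 guard cell markers was 1.72 to 1.84 times the 75th percentile in Ler control, 0.661 to 0.733 in Ler salt, 1.03 to 1.04 in Sha control and 0.400 to 0.446 in Sha salt, but the 4 did not move together. With salt in Ler and Sha, MYB60 changed by -3.03 and -2.64 and OST1 by 1.12 and 1.98, all called, and the list's median change was -0.11 and 0.35. The part of these markers in the EXPA1 values was not tested.

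EXPA9 (AT5G02260), another secreted wall-loosening member, had log2 signals of -1.01 and -1.05 in Ler control and -0.65 and -0.74 in Ler salt. In Sha it was -0.65 and -0.62 without salt and -1.33 and -1.29 with salt. Its salt arrays were thus the higher ones in Ler and the lower ones in Sha, and the Ler change of 0.33 ± 0.07 SE (limma adjusted p = 0.00646) and the Sha change of -0.68 ± 0.07 (adjusted p = 0.000244) were both under 2-fold. EXPA15 (AT2G03090) had log2 signals of 1.25 and 1.26 in Ler control, 1.98 and 1.89 in Ler salt, 0.80 and 1.07 in Sha control, and 0.94 and 1.08 in Sha salt. The Sha groups overlapped and the Ler groups did not. The change with salt was 0.67 ± 0.11 in Ler (limma adjusted p = 0.00228), and that of Sha was 0.07 ± 0.11 (adjusted p = 0.581).

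The control and salt leaves of an ecotype and replicate number were hybridized on 1 slide, so each salt change could also be read within a slide. The 2 within-slide changes of EXPA10 were 4.59 and 4.40 in Ler and 3.23 and 3.17 in Sha. Those of EXPA8 were -4.24 on both Ler slides, and -4.33 and -4.24 on the Sha slides. EXPA5 in Ler was the only one of the 20 pairs of within-slide changes in which the slides differed in sign, at 0.02 and -0.16.

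The second question was whether the ecotypes differed in the absence of salt. In Sha vs. Ler without salt, 0 of the 10 members were called in either direction, where 5.09% of all loci were called higher and 6.86% lower. At an adjusted p under 0.05 with no limit on fold, 4 members were higher in Sha (EXPA5, EXPA9, EXPA10 and EXPA11) and 2 were lower (EXPA1 and EXPA8), against 21.5% and 22.6% of all loci. The difference was 0.70 ± 0.12 SE for EXPA11 (limma adjusted p = 0.00522) and -0.74 ± 0.12 for EXPA1 (adjusted p = 0.00431), which were its extremes among the members. The median of the members was -0.05, beside -0.01 over all loci.

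In the presence of salt, the signal of each of the 10 members was lower on both Sha arrays than on both Ler arrays, whereas 40.4% of all loci had this arrangement. Again 0 members were called at the 2-fold limit, where 5.85% of all loci were called higher and 8.31% lower. At an adjusted p under 0.05 with no limit on fold, all 10 members were lower in Sha, against 26.3% of all loci. The log2 difference ranged from -0.29 ± 0.07 SE for EXPA8 (limma adjusted p = 0.0168) to -0.97 ± 0.08 for EXPA3 (adjusted p = 0.000326), with a median of -0.68 beside -0.02 over all loci. EXPA15 (-0.92 ± 0.11, adjusted p = 0.0011) and EXPA10 (-0.85 ± 0.10, adjusted p = 0.00119) followed EXPA3. Each slide held 1 ecotype, so slide and ecotype could be separated only through the 2 slides of each ecotype. Replicate 1 of all groups was scanned on the same day, and among these 4 arrays the difference in the presence of salt was between -0.36 for EXPA8 and -1.08 for EXPA3. Replicate 2 of Ler and replicate 2 of Sha were scanned on different days. With the scan day as a block, replicate 2 thus entered this contrast only through its within-slide salt changes. In that fit EXPA3 (-1.04) and EXPA15 (-1.05) were called lower, as were 2618 of all 34659 probes. It is not a separate check beside the replicate 1 differences.

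The third question was whether the salt response itself differed between the ecotypes, which was tested as the difference of the 2 salt changes, Sha minus Ler. This difference was called negative for 3 members (EXPA9, EXPA10 and EXPA11) and positive for 0, where 4.74% and 4.02% of all loci were called. EXPA10 had the largest difference, of -1.29 ± 0.14 SE (limma adjusted p = 0.00347), so that its rise was 2.45-fold smaller in Sha. EXPA11 followed with -1.10 ± 0.16 (adjusted p = 0.00815) and EXPA9 with -1.01 ± 0.10 (adjusted p = 0.00228), which is just past the 2-fold limit. The EXPA9 value moved to between -0.96 and -0.99 without replicate 2 of Ler control, replicate 1 of Ler salt, replicate 2 of Sha control or replicate 1 of Sha salt, and that of EXPA11 to -0.97 without replicate 1 of Sha salt, all inside the limit. EXPA9 was also inside it with quantile normalization (-0.99), median scaling (-0.97) and normexp (-0.98). With normexp EXPA11 was at -1.09 but its limma adjusted p was above 0.05, so that EXPA10 was the 1 member called there.

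EXPA5 (-0.97 ± 0.16 SE, limma adjusted p = 0.0101) and EXPA3 (-0.89 ± 0.12, adjusted p = 0.00577) stayed just inside that limit, and EXPA15 had a difference of -0.60 ± 0.15 (adjusted p = 0.0386). With no limit on fold, 6 members thus had a negative difference, against 14.1% of all loci. For EXPA4 (-0.51 ± 0.23, adjusted p = 0.166) and EXPA6 (-0.44 ± 0.14, adjusted p = 0.0684) the difference did not pass the adjusted p. EXPA4 was therefore called in Sha alone without a shown difference between the ecotypes. EXPA8 (-0.04 ± 0.10, adjusted p = 0.765) and EXPA1 (-0.02 ± 0.16, adjusted p = 0.953) had the smallest differences. At the brightest probes all 10 values were negative with the 75th percentile scaling, as were 51.6% of those of all loci. EXPA1, near 0, changed sign with median scaling (0.017), with normexp (0.020) and with some arrays left out, and EXPA8 was at 0.18 with the mean of its probes. That mean takes in the dimmest EXPA8 probe, at 0.75 (limma adjusted p = 0.169), which was not well above background in Ler salt. The second EXPA8 probe was at -0.16. The median of the 10 values at the brightest probes was -0.75, beside -0.02 over all loci. The comparison of the ecotypes with salt and the comparison of their salt responses share the salt arrays, so these are not separate lines of evidence.

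**Figure D2:**
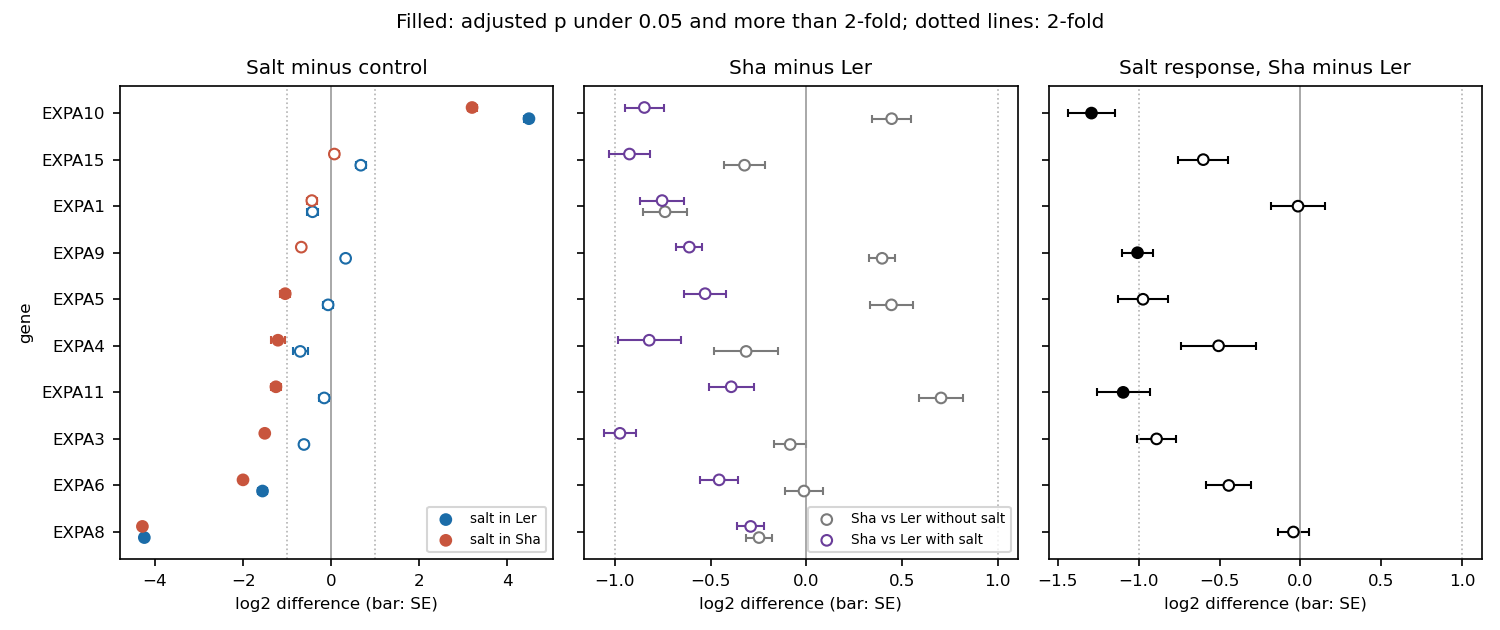
Log2 differences of the 10 alpha expansins between groups: salt minus control in Ler and in Sha, Sha minus Ler without and with salt, and the salt response of Sha minus that of Ler. Bars give the SE, filled points were called (adjusted p under 0.05 and more than 2-fold) and dotted lines mark 2-fold; all 10 values of Sha minus Ler with salt lie below 0 and inside the 2-fold line.

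The 4 members with several probes were read at each of them. Both probes of EXPA10 rose with salt in both ecotypes. Its dimmer probe rose by 4.45 in Ler and 3.30 in Sha. At this probe the salt responses differed by -1.16 ± 0.11 SE (limma adjusted p = 0.00226), again called. All 3 probes of EXPA8 fell in both ecotypes. The second probe changed by -4.22 in Ler and -4.39 in Sha. The dimmest probe was not well above background on either Ler salt array, so that its fall in Ler was at least 30.6-fold, where the dim side was set to its own signal or to the lowest signal counted as above background on that array, whichever was higher. In Sha it changed by -4.29, with 1 of the 2 salt arrays above background. Sha vs. Ler without salt was -1.33 ± 0.25 at this probe (adjusted p = 0.00809), which was called, while it was -0.25 and -0.16 at the brighter probes.

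The probes of EXPA3 and EXPA5 gave different calls. The dimmer EXPA3 probe fell in Ler too (log2 change -1.19 ± 0.12 SE, limma adjusted p = 0.000251), with -1.41 ± 0.12 in Sha (adjusted p = 0.000107), so the difference of responses was -0.22 ± 0.17 there (adjusted p = 0.37) instead of -0.89 at the brighter probe. At the dimmer EXPA5 probe the Ler change was -0.39 ± 0.20 (adjusted p = 0.128), the Sha change was -0.53 ± 0.20 (adjusted p = 0.0532), and it had a difference of -0.14 ± 0.28 (adjusted p = 0.738). It was also lower in Sha than in Ler without salt, by -0.68, where the brighter probe was higher by 0.44. The size of the difference of responses in these 2 genes, and the sign of the EXPA5 contrast without salt, therefore rest on which probe is read. With salt both probes of each gene were lower in Sha, at -0.97 and -0.82 for EXPA3 and -0.53 and -0.82 for EXPA5.

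**Figure D3:**
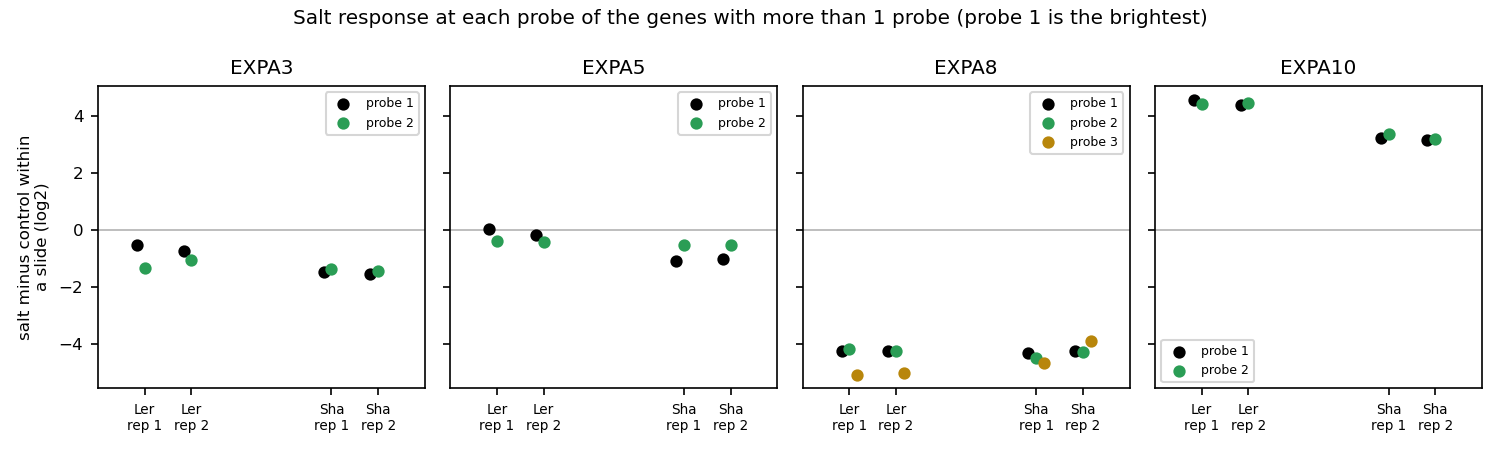
Salt minus control in log2 signal within each slide, at every probe of the 4 alpha expansins that have more than 1 probe. Each point is 1 slide of Ler or Sha; the probes of EXPA10 lie together within an ecotype, and those of EXPA3 in Ler lie apart (-0.62 and -1.19 in the mean).

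The rest of the expansin superfamily was read from lists of gene families. Of 16 other alpha expansins, 8 had a tested probe, 7 were not tested because their probe was dim, and EXPA19 had no probe. In Ler, 2 of these 8 were called higher and 1 lower, beside 13.1% and 15.6% of all loci. The median log2 change of the 8 was -0.23 (0.07 with normexp). The number called higher was 1 with normexp and 0 without Ler control replicate 1. In Sha, 1 was called higher and 5 lower (4 lower with normexp), beside 14.1% and 17.9% of all loci. The median of the 8 was -1.77 (-1.12 with normexp). EXPA20 rose in both ecotypes (1.15 in Ler and 1.39 in Sha), though its Ler call was lost without that array. EXPA14, known from developing lateral roots, fell by 1.33 in Ler and by 2.71 in Sha. EXPA18, which is needed for root hairs, had the largest fall in Sha (6.72-fold, log2 change -2.75 ± 0.11 SE), and its Ler change was -0.32 ± 0.11. The difference of responses was called negative for 6 of these 8 genes, beside 4.74% of all loci. It was called negative for 3 of the 8 with normexp, under which 266 of all 34659 probes were called negative. For EXPA18 the difference was -2.43 ± 0.15 in the main fit (limma adjusted p = 0.000743). In Sha vs. Ler with salt, 4 of the 8 were called lower and 0 higher, beside 8.31% and 5.85% of all loci. The differences of the 8 had a median of -1.14 and a maximum of 0.21 (EXPA20). Lower signals in Sha with salt were thus not particular to the members. EXPA7 and EXPA18 are also among the root markers given above.

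Beta expansins and expansin-like genes, the sister groups of the superfamily, moved in both directions. Of 10 genes, 7 were tested, and the same 4 were called higher and 3 lower in each ecotype (1 lower in Ler with normexp). Of all loci, 13.1% were called higher and 15.6% lower in Ler, and 14.1% and 17.9% in Sha. The 3 that fell were the beta expansins EXPB1, EXPB2 and EXPB3. EXPB3 fell 7.43-fold in Ler, and EXPB2 changed by -3.60 in Sha. The 4 that rose were the expansin-like genes EXLA1, EXLA2, EXLA3 and EXLB1, whose proteins have the expansin fold but for which no wall-loosening activity is established. EXLB1 rose 13.6-fold in Ler, and EXLA3 rose 36.2-fold in Sha. In EXLA1 (1.35 ± 0.15 SE, limma adjusted p = 0.0037) and EXLA3 (1.56 ± 0.26, adjusted p = 0.0108) the rise was larger in Sha, the opposite sign to EXPA10.

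Other genes of wall loosening and acid growth were counted in the same way. XTH enzymes cut and rejoin xyloglucan chains in the wall. Of 33 XTH genes, 31 were tested, with 7 called higher and 12 lower in Ler, and 7 higher and 15 lower in Sha (medians -0.78 and -0.90). The shares of all loci called higher and lower were 13.1% and 15.6% in Ler, and 14.1% and 17.9% in Sha. XTH23 had the largest rise in Ler (32.9-fold) and XTH11 in Sha (27.3-fold), and XTH21 fell by 3.93 in Ler and by 4.46 in Sha. XTH2 was not well above background in Sha salt and was at least 5.25-fold lower there than in Sha control. It was not above background in either Ler group, so its Ler call is no measured change, and without it 11 of 30 were called lower in Ler. The difference of responses was called negative for 7 of these 30, beside 4.74% of all loci. With normexp it was called negative for 3 of all 31, where 266 of all 34659 probes were.

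Plasma membrane H+-ATPases pump the protons that acidify the wall. Of 11 genes, 10 were tested. In Ler 3 were called higher and 2 lower, beside 13.1% and 15.6% of all loci. In Sha 2 were called higher and 2 lower, beside 14.1% and 17.9% of all loci. The medians of the 10 genes were 0.45 and 0.33. With normexp 1 was higher in Ler and 0 in Sha, and 1 was higher in Sha without Sha control replicate 1 or Sha salt replicate 2. AHA7 changed by -1.45 in Ler and -2.75 in Sha, and the rises included AHA3 in Ler (2.02) and AHA4 in Sha (1.01), both named for the largest rise measured above background on both sides. AHA9 was not well above background in either control group and was at least 2.85-fold higher in Ler salt and at least 5.90-fold higher in Sha salt. The difference of responses was called negative for 3 of the 10 H+-ATPase genes and positive for 0, beside 4.74% and 4.02% of all loci. SAUR19 subfamily proteins keep these pumps active by inhibiting the phosphatases that switch them off. All 5 tested genes of the subfamily were called lower in both ecotypes, as were 12.5% of all loci. The median changes of the 5 were -3.61 in Ler and -3.45 in Sha, and SAUR21 fell most (by 3.86 and by 3.89). These SAUR genes are near-identical copies, so a probe may read more than 1 of them.

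**Figure D4:**
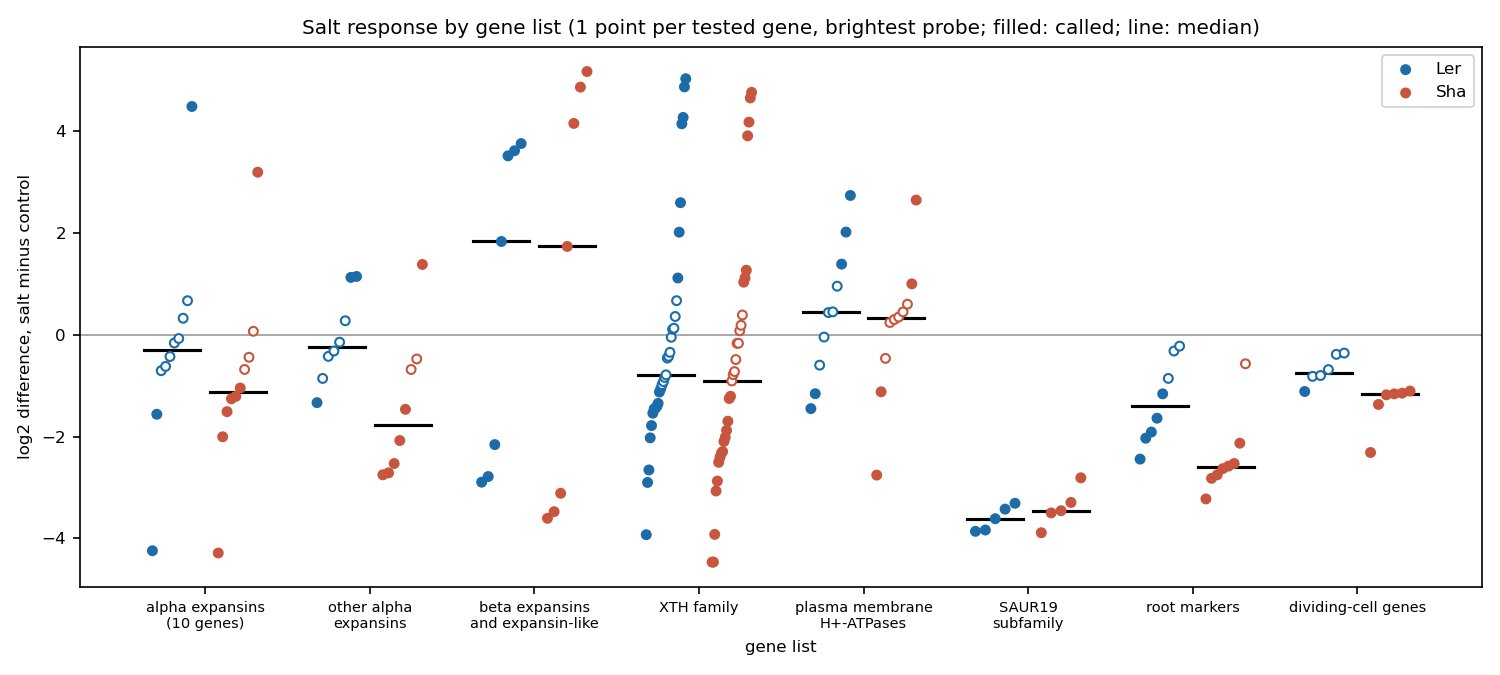
Salt minus control in log2 signal in Ler and Sha for the alpha expansins and the other gene lists, 1 point per gene at its brightest tested probe. Filled points were called and lines mark the median of a list; the median of the 10 alpha expansins is -0.29 in Ler and -1.13 in Sha, and the 5 SAUR19 subfamily genes all fell.

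Genes of dividing cells were read beside the expansins, since dividing and expanding cells occur together in young leaves. Of 6 such genes, 1 was called lower in Ler, beside 15.6% of all loci. It was PCNA1, the sliding clamp of DNA replication, with a log2 change of -1.11. All 6 were called lower in Sha (PCNA1 changed by -2.31), beside 17.9% of all loci. The difference of responses, however, was called negative for only 1 of the 6 (PCNA1, -1.20), beside 4.74% of all loci. The median changes of the 6 genes were -0.74 in Ler and -1.17 in Sha. Their summed signal was 6.12 to 6.27 times the 75th percentile in Ler control, about 3.65 in Ler salt, 5.89 to 6.23 in Sha control and 2.14 to 2.37 in Sha salt. These sums were lower in Sha salt than in Ler salt, as were the signals of the 10 alpha expansins, and their part in the expansin values was not tested.

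The members differed widely in how they varied over the 8 arrays. The root mean square distance of a member's centered log2 values from the median profile of the 10 members ranged from 0.125 to 2.24. Of 19295 other loci, the one nearest to this median profile was AT5G67150 (0.064), followed by AT1G34110 (0.069), AT2G24700 (0.071), ZCF61 (AT1G59560, 0.075) and AT5G45850 (0.077). This is a description over 8 arrays, to which no test was applied.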

How the data were processed

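RNA was labeled with Cy3 and hybridized to Agilent Arabidopsis arrays, and the authors deposited intensity in arbitrary units, corrected for background within each array by Agilent Feature Extraction 10.7.1.1 (protocol GE1_107_Sep09) and not scaled between arrays. The labels give 12 h of light and 12 h of dark for all 4 groups, whereas the methods of the paper give a longer light period. Of 43603 probes, 31 were left out for outlier spots. Signals were log2 transformed, scaled to the 75th percentile of each array, and tested where 1 or more groups had the probe well above background on both of its arrays. limma 3.58.1 in R 4.3.3 was fitted to 4 groups of 2 arrays without a block, with Benjamini-Hochberg adjustment. Code was tested on simulated data, and figures used Python 3.11.15 and matplotlib 3.10.9. A gene was read at its brightest probe. RefSeq accessions placed 34263 kept probes on a locus. The members and gene lists were chosen with earlier results of these data known. All members were named, and from other lists the largest rise and fall in each salt comparison. EXPB1, EXLA1, EXLA2 and 1-sided bounds (XTH2, AHA9) were named after their values were seen. Alternatives were quantile normalization, median scaling, normexp, other filters, limits and probes, blocks, and each array left out. Probe sequences, and any ecotype difference beneath them, were not analysed here. The small number of arrays limits precision.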

Additional observations from a re-analysis of the deposited data

Results flagged for a closer look

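For 3 alpha expansins the interaction term of the limma fit showed unlike salt responses in the ecotypes. The difference, Sha minus Ler on the log2 scale, was -1.29 for EXPA10, -1.10 for EXPA11 and -1.01 for EXPA9. EXPA10 rose in both ecotypes, EXPA11 fell in Sha and had a change of -0.16 in Ler, and EXPA9 had changes of opposite sign, with 0.36 and 0.30 on the Ler slides and -0.68 on both Sha slides. The EXPA10 difference was called under every alternative that was run, with an adjusted p of at most 0.0225. That of EXPA9 was under 2-fold in 7 alternatives, and that of EXPA11 was not called in 2.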

How the results depend on the processing

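Of the 13 calls over the members, 9 held under every alternative, and 0 changed direction. With an adjusted p under 0.05 and no limit on fold, 3 members were higher and 5 lower in Ler with salt, 4 higher and 2 lower in Sha vs. Ler without salt, 10 lower with salt, and 6 had a negative difference of responses. Of all 34659 probes, 2674 were called lower in Sha vs. Ler with salt in the main fit. The number was 1841 with normexp and 2618 with the scan day as a block. Members called lower in this comparison numbered 2 with normexp (EXPA3 and EXPA4) and 2 with the scan day as a block. They ranged from 0 to 1 as each array was left out (EXPA3, without replicate 2 of Ler salt or of Sha salt). The negative differences of responses numbered 1 with normexp and 1 to 4 with an array left out, 1 without Sha salt replicate 1. Over all 34659 probes, 266 negative differences were called with normexp, against 1398 in the main fit. Salt calls with normexp were 3126 higher and 2647 lower in Ler, against 4304 and 5315 in the main fit. In Sha they were 3441 and 3429, against 5139 and 5615. Members called lower by salt in Sha numbered 5 to 6 with an array left out.

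With normexp, the median of all probes shifted by 0.24 for salt in Ler, 0.07 in Sha, -0.10 for Sha vs. Ler without salt, -0.21 with salt and -0.13 for the difference of responses. Single arrays left out gave the EXPA5 change in Ler a range of -0.19 to 0.046, the EXPA15 change in Sha -0.060 to 0.21, EXPA6 in Sha vs. Ler without salt -0.11 to 0.086, and the EXPA1 difference of responses -0.12 to 0.095. Their sign also turned for EXPA6 (0.11 with quantile normalization, 0.0088 with median scaling, 0.029 with normexp) and EXPA1 (0.017 with median scaling, 0.020 with normexp). EXPA5 in Sha vs. Ler without salt was -0.12 with the mean of probes and -0.68 at the second probe, and the EXPA8 difference was 0.18 with the mean of probes. The causes were not tested.

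With the replicate number as a block, the counts stayed at 1 higher and 2 lower in Ler, 1 and 6 in Sha, and 3 negative differences, and all 50 member results kept their call. Same-numbered samples deviated together with correlations of 0.058 to 0.47, which did not settle a pairing of the plants. For control and salt samples that shared a slide, the correlation was 0.21 in Ler and 0.47 in Sha. With the slide as a block, or as a random effect for Sha vs. Ler (correlation 0.54), all 50 member results also kept their call.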
